A study of Tachysurus vachellii with 6 samples.

Results

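The genes described here encode the transforming growth factor beta (TGF-beta) and bone morphogenetic protein (BMP) ligands, their receptors, the SMAD proteins and the ID proteins, measured as messenger RNA in the gill of hybrid yellow catfish. They were taken from the gene table by symbol (names beginning with bmp, tgfb, smad, gdf, inhb or acvr, and id1 to id4) or by one of 5 phrases in the description, such as "activin receptor". Such a name was found for 78 of the 28288 genes listed, and the 52 with at least 1 FPKM (fragments mapped per kilobase of transcript, relative to the library total) in at least 3 of 6 libraries are the members. Of these, 49 reached 1 FPKM in all 6 libraries, 27 carry a symbol and 25 only a LOC identifier with a description taken from a similar protein of another fish.

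The fish were a cross of a Tachysurus fulvidraco mother with a Pseudobagrus vachellii father, and the labels give no strain, age or sex beyond that. The hypoxia group was kept for 96 h at 1.5 mg/L dissolved oxygen and the normoxia group at 6.5 mg/L. Each group had 9 fish, whose gill RNA was mixed in sets of 3 before sequencing, so that 3 hypoxia and 3 normoxia libraries stand for pools and not for single animals. The comparison asks which of these genes differ in the gill between low and ordinary oxygen.

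Ligands of this family are secreted as dimers, bind pairs of type II and type I receptor kinases, and cause receptor-regulated SMADs to be phosphorylated, to join the common SMAD4 and to enter the nucleus. TGF-betas and activins act mainly through SMAD2 and SMAD3, BMPs mainly through SMAD1, SMAD5 and SMAD9, while SMAD6 and SMAD7 are inhibitory SMADs whose genes are themselves induced by the pathway. The ID genes are classical BMP targets and encode helix-loop-helix proteins that block differentiation factors. In vertebrates these signals take part in the renewal of epithelia such as skin and gut, in the growth of cartilage and bone and in restraining immune cells.

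Total counts were 44762764 to 55016223 per library, and counts per member ranged from about 100 in the weakest library of tgfbr3 to 19857 for an ID gene, so the spread between pools rather than counting limits the precision. Markers of gill epithelium were abundant in all libraries, with a summed level of 3930 to 6242 FPKM in normoxia and 3877 to 5794 in hypoxia, and 0 of 10 tested were called. Some other sets of cell markers varied more. Macrophage markers did not, at 126 to 153 FPKM in normoxia and 121 to 131 in hypoxia, with 1 of 5 lower. Ionocyte markers summed to 812 to 1311 FPKM in normoxia and 1097 to 1819 in hypoxia, with 1 of 14 lower. Red cell markers summed to 6910 to 14899 and 7442 to 10095 FPKM, with 0 of 13 called. T and B cell markers summed to 55.8 to 74.4 FPKM in normoxia and 26.1 to 38.0 in hypoxia, with 1 of 4 lower and none of the 4 at 0. Cartilage and bone markers summed to 78.7 to 163 FPKM in normoxia and 196 to 247 in hypoxia, with 1 of 8 higher, a sox9-like gene, and 2 of the 14 listed at 0 in all libraries. Skeletal muscle markers ran from 2.41 to 364 FPKM among normoxia and from 9.96 to 419 among hypoxia libraries, and fibroblast markers from 75.4 to 626 and from 109 to 216. In bulk gill RNA fewer cells of a type and less RNA per cell cannot be told apart.

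By edgeR's quasi-likelihood test on counts, with p-values adjusted over all 15312 genes tested and a threshold of 0.05, 3 of 52 members were higher in hypoxia and 3 lower. Those higher were tgfb3, a BMP-10-like gene and a SMAD6-like gene, and those lower were bmp4, a BMP-2-like gene and the co-receptor gene tgfbr3. The 6 called members make 11.5% of the 52, near the 9.54% of all genes tested, and in each direction the share was 5.77% against 5.39% of all genes higher and 4.15% lower. The median log2 change (hypoxia minus normoxia) was -0.02 over the members and -0.04 over all genes, with 24 members above 0 and 28 below, and a range from -1.40 to 1.31. An unadjusted p under 0.05 was found for 13 members, and for 30.3% of all genes. FPKM of the groups did not overlap in 16 members (30.8%, against 37.3% of all genes), with hypoxia above in 4 (11.4% of all genes) and below in 12 (25.9%). Deposited FPKM carry no TMM scaling, the adjustment of edgeR for libraries dominated by a few genes, and library totals alone moved the median change of all genes to -0.20. TMM factors were 1.03 to 1.08 in normoxia and 0.867, 0.932 and 1.03 in hypoxia 1 to 3. Orders and overlaps of libraries given here are those of FPKM and can differ with that scaling. Fold changes are those fitted by edgeR to TMM-scaled counts and not ratios of mean FPKM. Each of the 6 calls was lost in at least 5 of the 6 fits that left out 1 library. In those fits 0 to 1 members were called higher and 0 to 1 lower, and all 6 genes kept their direction. The calls of tgfb3 and LOC113636805 also ended with library totals and with limma on FPKM, and that of LOC113657284 with limma on log2(FPKM + 0.1). Without an FPKM filter bmp4, tgfbr3, LOC113659797 and LOC113636805 were not called, and with the length correction LOC113659797 was not (edgeR adjusted p = 0.0628). Without an abundance trend in the dispersion only bmp4 and tgfbr3 of the 6 were called.

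**Figure D1:**
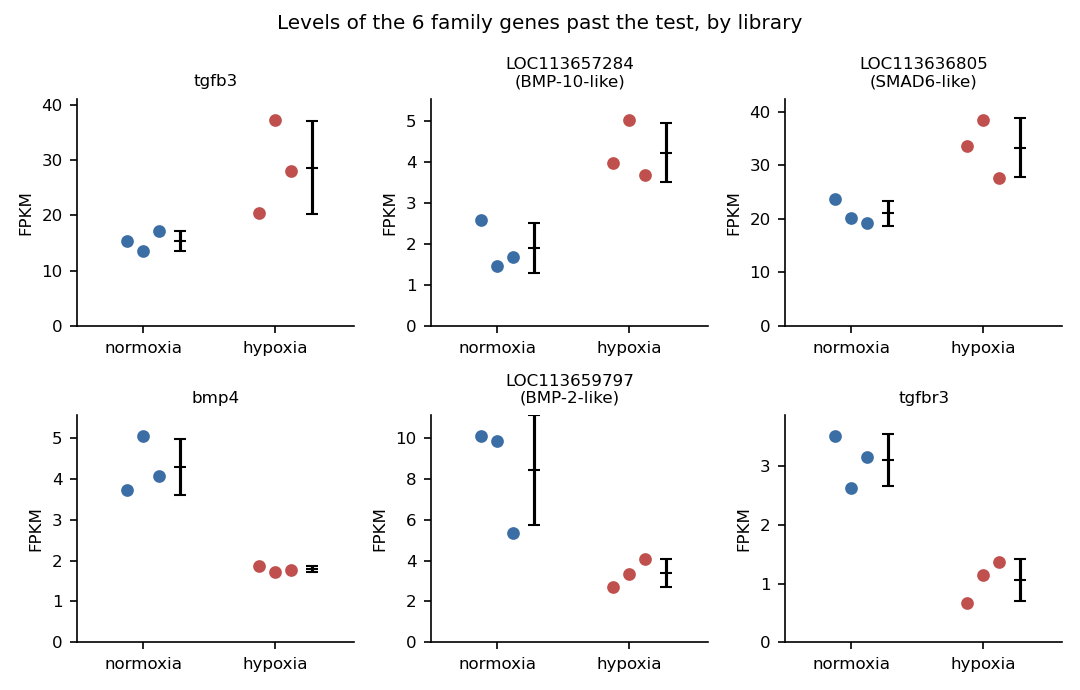
FPKM (vertical axis, from 0) of the 6 members past the test in 3 normoxia (blue) and 3 hypoxia (red) libraries, with the mean and SD in black. In each of the 6 genes the libraries of the groups do not overlap, with hypoxia above in tgfb3, LOC113657284 and LOC113636805 and below in bmp4, LOC113659797 and tgfbr3.

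**Figure D2:**
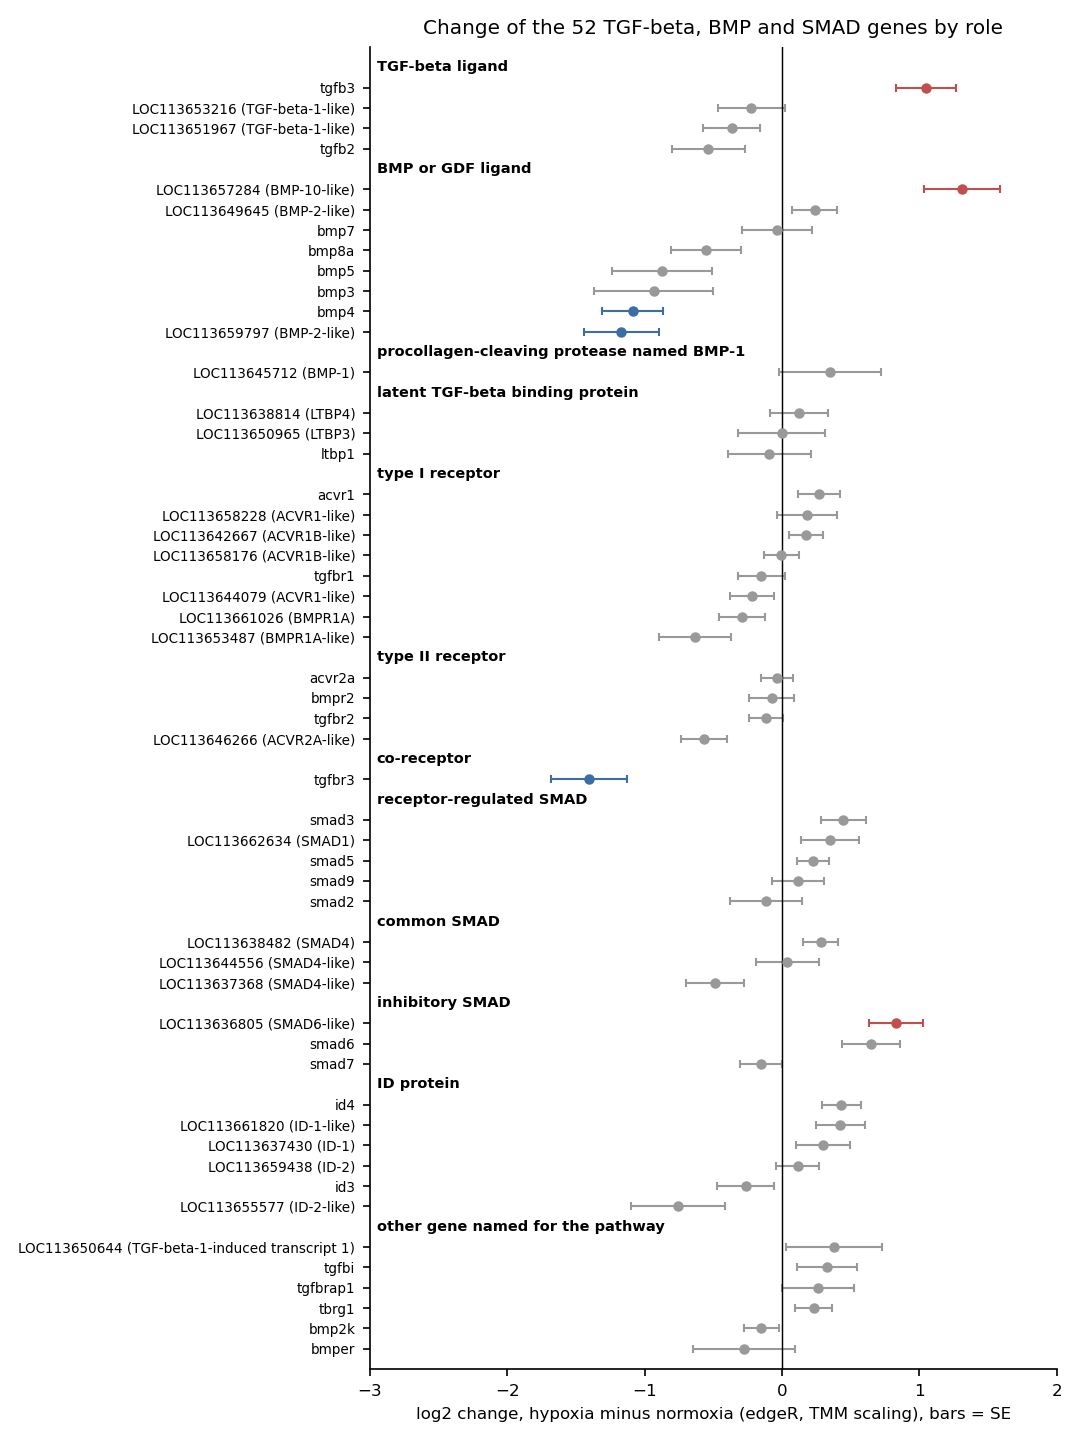
Log2 change (hypoxia minus normoxia, horizontal axis) of the 52 members by role, from edgeR on counts with TMM scaling; points are estimates, bars are SE, red and blue mark members called higher and lower. The changes run from -1.40 for tgfbr3 to 1.31 for LOC113657284, and 14 of the uncalled (grey) members change sign under another scaling, filter, tool or length correction.

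Among the TGF-beta ligands tgfb3 rose while the other 3 genes were not called. tgfb3 encodes TGF-beta 3, known in mammals for palate fusion and scar-poor wound repair. It stood at 15.4, 13.6 and 17.2 FPKM in the normoxia libraries 1 to 3 and at 20.5, 37.3 and 28.0 in the hypoxia libraries 1 to 3. Every hypoxia library was above every normoxia library, hypoxia 2 by the most. The mean went from 15.4 ± 1.81 to 28.6 ± 8.44 FPKM (SD, n = 3 libraries). On TMM-scaled counts the fitted change was a 2.07-fold rise, with a log2 change of 1.05 ± 0.22 (SE, edgeR adjusted p = 0.0358).

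The remaining TGF-beta genes had lower values in hypoxia without passing the test. LOC113651967, described as TGF-beta-1-like and so resembling the ligand best known for restraining T cells, had 9.00, 11.4 and 9.19 FPKM in normoxia and 8.12, 6.06 and 6.16 in hypoxia (log2 change -0.37 ± 0.21, edgeR adjusted p = 0.276). The groups did not overlap, nor did those of tgfb2, at 1.51 to 2.17 FPKM in normoxia and 0.755 to 1.41 in hypoxia (-0.53 ± 0.27). A second TGF-beta-1-like gene, LOC113653216, overlapped at 2.66 to 3.64 and 1.85 to 3.09 FPKM. In summed FPKM of the 4 genes, tgfb3 made up 50.9% ± 5.58 in normoxia and 72.5% ± 7.84 in hypoxia (SD, n = 3), with no overlap, and LOC113651967 32.7% ± 4.44 and 18.2% ± 6.60. Shares within a library do not depend on scaling between libraries, but 1 gene's rise lowers the shares of the others.

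**Figure D3:**
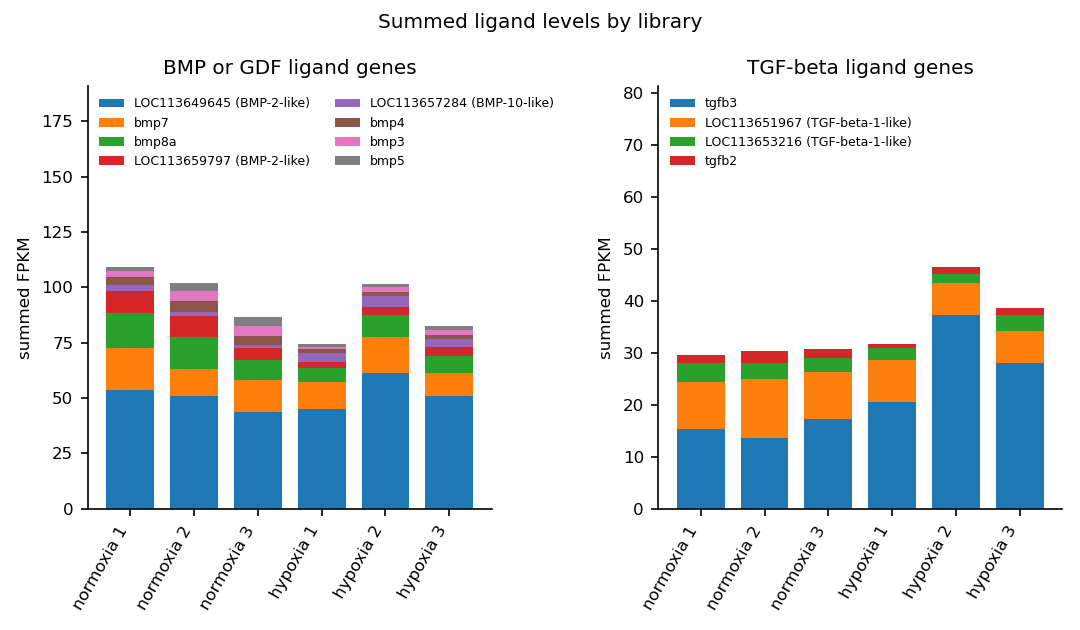
Summed FPKM (vertical axis, from 0) of the 8 BMP ligand genes and of the 4 TGF-beta ligand genes in each of 6 libraries, coloured by gene. LOC113649645 is the largest piece of every BMP bar, and tgfb3 takes 50.9% of the TGF-beta sum on average in normoxia and 72.5% in hypoxia.

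Of 8 BMP ligand genes 1 rose and 2 fell. That is 37.5% called, against 9.54% of all genes tested, a share that rests on only 8 genes. None of the genes named gdf passed the FPKM threshold. LOC113649645, described as BMP-2-like, was the most abundant, at 53.7, 51.1 and 43.9 FPKM in normoxia and 44.9, 61.3 and 50.9 in hypoxia. BMP-2 is an inducer of bone and cartilage and a signal in epithelia. The groups overlapped and the log2 change was 0.24 ± 0.16 (edgeR adjusted p = 0.368). A second gene described as BMP-2-like, LOC113659797, had 10.1, 9.84 and 5.33 FPKM in normoxia and 2.70, 3.37 and 4.09 in hypoxia. All hypoxia libraries were below all normoxia libraries, of which normoxia 3 was the lowest. It fell 2.25-fold (log2 change -1.17 ± 0.27, edgeR adjusted p = 0.0448).

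The gene bmp4, which encodes a ligand close to BMP-2 with roles in ventral patterning and in the development of many epithelia, had 3.71, 5.04 and 4.08 FPKM in normoxia and 1.86, 1.73 and 1.78 in hypoxia. The hypoxia libraries lay within a narrow band below all normoxia libraries. The mean went from 4.28 ± 0.688 to 1.79 ± 0.0680 FPKM (SD, n = 3). On TMM-scaled counts the fitted change was a 2.13-fold fall (log2 change -1.09 ± 0.22, edgeR adjusted p = 0.0344). LOC113657284, described as BMP-10-like, moved the other way. BMP-10 is known in mammals as a heart-derived ligand that acts on endothelial cells. It had 2.59, 1.45 and 1.68 FPKM in normoxia and 3.99, 5.04 and 3.68 in hypoxia, with no overlap. This was a 2.48-fold rise (log2 change 1.31 ± 0.28, edgeR adjusted p = 0.0373), the largest rise among the members.

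The other 4 BMP genes were not called. The kidney and bone ligand gene bmp7 had levels of 12.1 to 18.9 FPKM in normoxia and 10.5 to 16.5 in hypoxia (log2 change -0.04 ± 0.26, above 0 without an FPKM filter and with a length correction). bmp8a had 9.05 to 15.7 and 6.49 to 9.91 FPKM, and it overlaps on the opposite strand a macrophage mannose receptor 1 gene of 244 FPKM on average. Because the strand setting is unknown, reads of such overlapping genes cannot be told apart. bmp3, whose product opposes other BMPs in bone, had 2.78, 4.69 and 4.43 FPKM in normoxia and 0.721, 2.41 and 2.55 in hypoxia, without overlap (-0.93 ± 0.43, edgeR adjusted p = 0.198). bmp5 had 1.56, 3.70 and 3.78 FPKM in normoxia and 1.32, 1.40 and 1.66 in hypoxia (-0.87 ± 0.37, edgeR adjusted p = 0.160). Normoxia 1 lay within the hypoxia range of bmp5. That library was also low in fibroblast markers, whose part in the bmp5 values was not tested. The summed FPKM of all 8 BMP genes overlapped, at 86.4 to 109 in normoxia and 74.4 to 102 in hypoxia. Within that sum LOC113649645 made up 50.0% ± 0.780 in normoxia and 60.8% ± 0.740 in hypoxia (SD, n = 3).

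LOC113645712 carries the name BMP-1 but resembles a metalloprotease that trims procollagen and is no ligand. It stood near the FPKM threshold at 1.17 to 2.84 FPKM in normoxia and 1.86 to 3.11 in hypoxia. The latent TGF-beta binding proteins hold the secreted ligand in the matrix, and edgeR, DESeq2 and limma called 0 of the 3 genes, of which 0 had an unadjusted edgeR p under 0.05. For all genes tested the edgeR shares were 9.54% called and 30.3% at an unadjusted p under 0.05. LTBP3-like LOC113650965 had 1.99, 4.45 and 4.92 FPKM in normoxia and 3.04, 3.32 and 3.75 in hypoxia, ltbp1 1.64, 2.69 and 3.42 against 1.51, 2.04 and 3.03, and LTBP4-like LOC113638814 3.23 to 4.80 against 3.23 to 5.07. In all 3 genes normoxia 1 was the lowest normoxia library, as it was for fibroblast markers, whose part in these values was not tested. Fitted changes of the 3 genes lay between -0.09 and 0.12 on the log2 scale, and each turned sign under at least 1 scaling or length setting.

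Of 8 type I and 4 type II receptor genes edgeR called 0, with 1 of each at an unadjusted p under 0.05, while DESeq2 called 1 type II gene lower and limma 0. Over all 15312 genes tested edgeR called 9.54%, with 30.3% at an unadjusted p under 0.05, and DESeq2 called 3332 genes. The most abundant, LOC113658228, resembles ACVR1, a type I receptor for BMPs, and had 32.9 to 46.7 FPKM in normoxia and 34.7 to 49.7 in hypoxia (log2 change 0.19 ± 0.22). Its neighbour LOC113658176, 3.512 kb away and like ACVR1B, a type I receptor for activin, had 5.87 to 6.62 and 5.25 to 6.23 FPKM. acvr1 itself stood at 15.0 to 20.7 and 16.7 to 20.8 FPKM, and the ACVR1B-like LOC113642667 at 14.8 to 15.8 and 15.2 to 16.1. Neither gene described as BMPR1A, another type I receptor for BMPs, was called. LOC113653487, like BMPR1A, had 9.87, 9.11 and 12.5 FPKM in normoxia and 4.63, 4.50 and 9.40 in hypoxia (-0.63 ± 0.26, edgeR adjusted p = 0.161), and was called lower without hypoxia 3. The other, LOC113661026, had 6.87 to 8.10 and 4.11 to 6.68 FPKM (-0.29 ± 0.17).

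Among type II receptors, which start the cascade, tgfbr2 had 33.0 to 39.5 FPKM in normoxia and 26.5 to 33.4 in hypoxia (log2 change -0.12 ± 0.13). LOC113646266, described as ACVR2A-like, had 7.19, 5.27 and 7.36 FPKM in normoxia and 3.81, 3.83 and 4.34 in hypoxia. The groups did not overlap, the log2 change was -0.57 ± 0.17 and the edgeR adjusted p was 0.0729. DESeq2, library totals and a filter at 5 FPKM called LOC113646266 lower. The gene acvr2a stood at 11.0 to 11.5 and 8.74 to 11.2 FPKM (-0.03 ± 0.12, above 0 with a length correction and without an FPKM filter), and bmpr2, the main BMP type II receptor gene, at 10.3 to 11.8 and 7.13 to 11.1 FPKM (-0.08 ± 0.16, above 0 with a length correction). The TGF-beta type I receptor gene tgfbr1 had 4.26 to 5.55 FPKM in normoxia and 3.19 to 4.61 in hypoxia.

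The co-receptor gene tgfbr3, which encodes betaglycan, a membrane proteoglycan that presents TGF-beta 2 and inhibin to the signalling receptors, had the largest fall among the members. Its levels were 3.51, 2.63 and 3.16 FPKM in normoxia and 0.674, 1.14 and 1.37 in hypoxia. All hypoxia libraries were below all normoxia libraries, and hypoxia 1 was the lowest. The mean went from 3.10 ± 0.444 to 1.06 ± 0.355 FPKM (SD, n = 3). On TMM-scaled counts the fitted change was a 2.65-fold fall (log2 change -1.40 ± 0.28, edgeR adjusted p = 0.0341).

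Of 5 receptor-regulated SMAD genes edgeR, DESeq2 and limma called 0, and 1 (smad3) had an unadjusted edgeR p under 0.05. Among all genes tested the edgeR shares were 9.54% called and 30.3% at an unadjusted p under 0.05. smad9 was the most abundant, at 21.5 to 30.2 FPKM in normoxia and 20.8 to 28.9 in hypoxia (log2 change 0.12 ± 0.19, below 0 with library totals and with limma), ahead of smad5 at 16.9 to 19.2 and 16.9 to 22.0 FPKM. The third gene of the BMP branch, SMAD1-like LOC113662634, had 2.76 to 3.13 and 2.36 to 4.24 FPKM. In the TGF-beta branch smad2 had 7.14 to 11.4 and 5.02 to 10.0 FPKM and smad3 had 3.15, 3.21 and 3.25 FPKM in normoxia and 3.09, 4.38 and 4.32 in hypoxia (0.45 ± 0.17, edgeR adjusted p = 0.125). So the BMP-branch genes smad9 and smad5 lay above both TGF-beta-branch genes per length in every library.

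Of 3 genes described as SMAD4, the shared partner, edgeR, DESeq2 and limma called 0, and 0 had an unadjusted edgeR p under 0.05. The edgeR shares of all genes tested were 9.54% and 30.3%. LOC113637368 had 12.9, 20.3 and 18.8 FPKM in normoxia and 10.8, 12.6 and 9.47 in hypoxia, with no overlap (log2 change -0.49 ± 0.21, edgeR adjusted p = 0.173). LOC113638482 had 11.8 to 12.8 and 10.9 to 15.7 FPKM (0.28 ± 0.13), and LOC113644556 6.05 to 8.43 and 4.37 to 8.00 (0.04 ± 0.23, below 0 with library totals, limma or a filter at 5 FPKM).

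Among inhibitory SMAD genes LOC113636805, described as SMAD6-like, rose. It had 23.6, 20.2 and 19.2 FPKM in normoxia and 33.7, 38.5 and 27.5 in hypoxia, with no overlap. The mean went from 21.0 ± 2.32 to 33.2 ± 5.51 FPKM (SD, n = 3). On TMM-scaled counts the fitted change was a 1.78-fold rise (log2 change 0.83 ± 0.20, edgeR adjusted p = 0.0467). With library totals or no filter on FPKM, among other settings, the call was lost while the value stayed above 0. The other SMAD6 gene, smad6, had 32.2, 31.2 and 25.0 FPKM in normoxia and 38.8, 50.5 and 34.0 in hypoxia. These groups did not overlap either, but smad6 was not called (0.65 ± 0.21, edgeR adjusted p = 0.0933), except by DESeq2. smad7, which acts on both branches, had 24.0, 21.1 and 20.02 FPKM in normoxia and 17.1, 19.1 and 16.1 in hypoxia (-0.15 ± 0.15, edgeR adjusted p = 0.550). SMAD6 acts mainly on BMP signals and is abundant in mammalian endothelium. Here 1 of 6 endothelial markers was lower, with overlapping sums of 44.6 to 57.1 FPKM in normoxia and 31.3 to 51.7 in hypoxia. The part of endothelial cells in the SMAD6 values was not tested.

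The ID genes included the most abundant members, and edgeR called 0 of 6, with 2 at an unadjusted p under 0.05, while DESeq2 called 1 and limma 0. Of all 15312 genes tested edgeR called 9.54%, with 30.3% at an unadjusted p under 0.05, and DESeq2 called 3332 genes. LOC113661820, described as ID-1-like, had 263, 238 and 283 FPKM in normoxia and 234, 373 and 339 in hypoxia (log2 change 0.42 ± 0.18, edgeR adjusted p = 0.164). The ID-1 gene LOC113637430 had 167, 172 and 181 FPKM in normoxia and 150, 247 and 177 in hypoxia (0.30 ± 0.19). In both genes hypoxia 1 had the lowest and hypoxia 2 the highest FPKM of the 6 libraries. FPKM carry no TMM scaling, and hypoxia 1 had a TMM factor of 0.867 against 1.03 to 1.08 in normoxia. After division by these factors hypoxia 1 did not lie below the normoxia libraries in either gene. The ID-2 gene LOC113659438 had 189 to 231 and 193 to 205 FPKM (0.12 ± 0.16, below 0 with library totals and limma).

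The less abundant ID genes differed in direction. id3 had 93.3, 116 and 93.0 FPKM in normoxia and 87.6, 73.4 and 61.2 in hypoxia, with no overlap (log2 change -0.26 ± 0.21, edgeR adjusted p = 0.433). id4 had 29.6 to 32.6 and 31.7 to 45.5 FPKM (0.43 ± 0.14, edgeR adjusted p = 0.0909) and was called higher by DESeq2. ID-2-like LOC113655577 had 16.9, 17.1 and 16.2 FPKM in normoxia and 4.50, 13.5 and 8.82 in hypoxia. The normoxia libraries were close to each other and the hypoxia libraries were spread out below them (-0.75 ± 0.34, edgeR adjusted p = 0.191). Summed over the 6 genes the groups overlapped, at 761 to 804 and 701 to 947 FPKM.

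**Figure D4:**
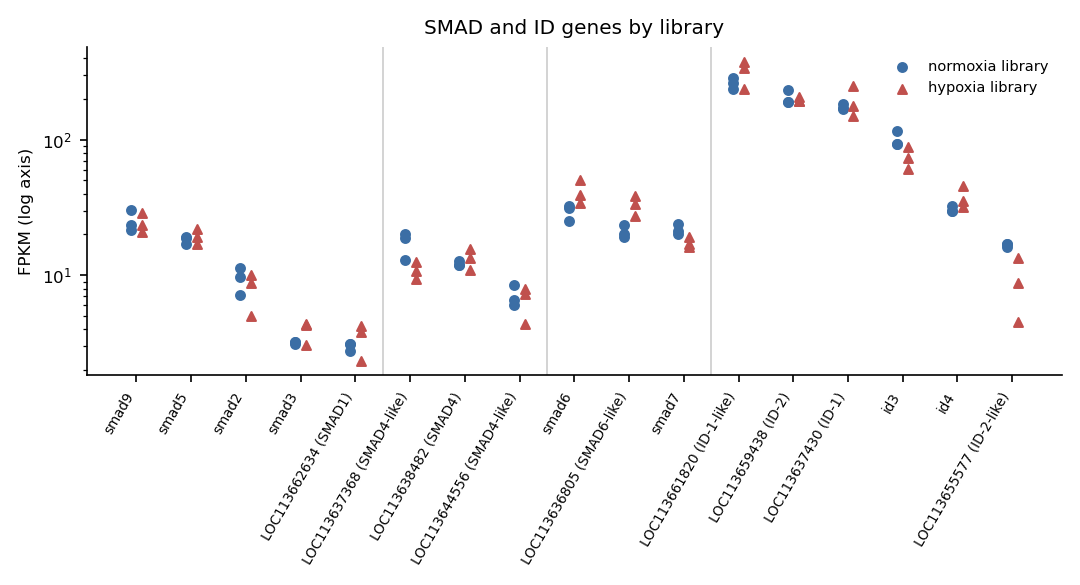
FPKM (log axis) of the 5 receptor-regulated, 3 common and 3 inhibitory SMAD genes and the 6 ID genes, separated by grey lines, in normoxia (circles) and hypoxia (triangles) libraries. The triangles lie above the circles in smad6 and LOC113636805 and below them in LOC113637368, smad7, id3 and LOC113655577. These FPKM carry no TMM scaling, and after division by the TMM factors the groups overlap in LOC113637368, smad7 and id3. FPKM groups did not overlap in 37.3% of all genes tested.

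The table holds many of these gene names more than once, as is usual in teleost fishes, and reads of close copies can be split between them. The members held 10 sets of genes whose descriptions match once "-like", isoform and species are left out. These sets gave 14 pairs in all, and 0 pairs shared a scaffold. They are called duplicates here by description alone, and no sequences were compared. For 5 pairs the ratio of the FPKM within a library did not overlap between groups, and for the other 9 it did. These 5 pairs make 35.7% of the 14, and some of the 14 share a gene. FPKM groups of single genes did not overlap in 37.3%, but FPKM depend on scaling between libraries and ratios within a library do not. The shares are therefore not directly comparable, and no share over other gene pairs was computed. The ratios are given as values and were not tested. The abundant BMP-2-like LOC113649645 stood at 5.33, 5.19 and 8.23 times LOC113659797 in normoxia and 16.6, 18.2 and 12.4 times in hypoxia. The ID-2 gene stood at 13.7, 11.0 and 11.8 times the ID-2-like LOC113655577 in normoxia and 42.9, 15.2 and 21.9 times in hypoxia. The ratio of SMAD4-like LOC113637368 to LOC113638482 was 1.01, 1.70 and 1.59 in normoxia and 0.987, 0.938 and 0.602 in hypoxia. The other 2 pairs were acvr1 with LOC113644079 and acvr2a with LOC113646266. LOC113644079, of 6.14 FPKM on average, overlaps d2hgdh, of 9.82 FPKM on average, on the opposite strand. With the strand setting unknown, reads of these overlapping genes cannot be told apart. Whether reads of 1 gene of a pair were counted for the other was not tested.

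Both SMAD6 genes had hypoxia libraries above all normoxia libraries, as had 11.4% of all genes tested. smad6 was not called (edgeR adjusted p = 0.0933), and LOC113636805 was called in 5 of 16 other settings. The summed level of both genes was 55.8, 51.3 and 44.3 FPKM in normoxia and 72.5, 89.0 and 61.5 in hypoxia, which does not overlap. The ratio of smad6 to LOC113636805 overlapped at 1.30 to 1.55 and 1.15 to 1.31. A sum of FPKM is little moved by how reads were split between copies of like length, here estimated at 2695 and 2637 bases. How reads that fit both copies were counted is not known.

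**Figure D5:**
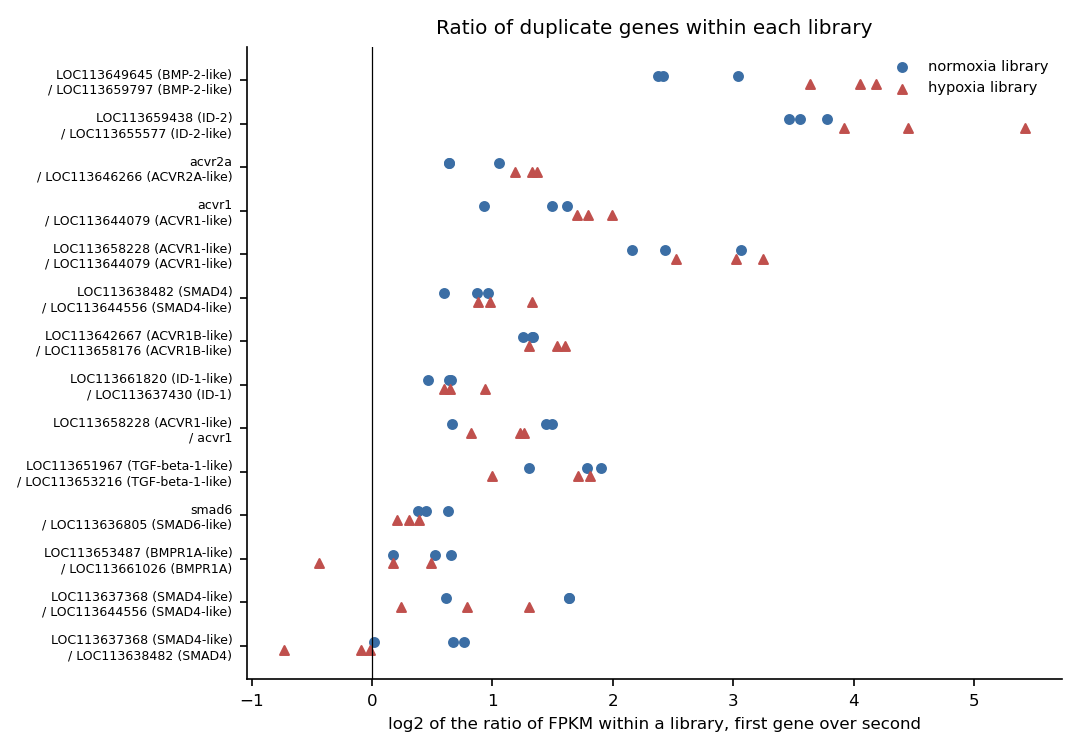
Log2 of the FPKM ratio of each duplicate pair, matched by description alone, within a library (horizontal axis), first gene over second, for normoxia (circles) and hypoxia (triangles). Groups do not overlap in 5 of 14 pairs (35.7%), among them the BMP-2-like pair at 5.19 to 8.23 times in normoxia and 12.4 to 18.2 times in hypoxia.

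The 52 members lay on 38 scaffolds, named here as in the deposited table; its genome build is not known. Scaffold NW_020848035.1 held 4 members, 3 of which were called: LOC113659797 at 8418731 to 8422756 on the plus strand, bmp4 at 8891918 to 8899301 on the plus strand and tgfb3 at 9910321 to 9925638 on the minus strand. LOC113659797 and bmp4 fell and tgfb3 rose. On the whole scaffold 32 of 290 tested genes were called, or 11.0%. The gene gdf3, listed at or near 0 in all libraries, ends 85 bases before LOC113659797. The other called genes were tgfbr3 on NW_020848416.1 at 12208753 to 12300492, LOC113657284 on NW_020847768.1 at 688926 to 695308 and LOC113636805 on NW_020848223.1 at 3401270 to 3409885. smad3 and smad6 are neighbours with 29.289 kb between them.

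The remaining 6 members are named for the pathway without being ligands, receptors or SMADs, and edgeR, DESeq2 and limma called 0 of them, with 0 at an unadjusted edgeR p under 0.05. In all genes tested these edgeR shares were 9.54% and 30.3%. The gene bmper, which encodes a BMP-binding protein, had 14.1, 7.87 and 10.0 FPKM in normoxia and 3.91, 11.1 and 9.08 in hypoxia, with hypoxia 1 far below the rest, and it overlaps nt5c3a on the opposite strand. The matrix protein gene tgfbi had 5.71 to 8.34 and 6.71 to 11.3 FPKM, and tbrg1, a growth regulator gene, 12.8 to 13.8 and 13.3 to 14.5 FPKM. LOC113650644, described as TGF-beta-1-induced transcript 1, an adaptor at focal adhesions, had 4.81 to 7.39 and 4.01 to 9.79 FPKM (log2 change 0.38 ± 0.35, edgeR adjusted p = 0.504). Levels of the kinase gene bmp2k stood at 5.91 to 6.85 and 4.43 to 6.02 FPKM (-0.15 ± 0.13, above 0 with a length correction), and tgfbrap1 at 3.79 to 7.23 and 5.30 to 8.12.

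The 26 genes under the FPKM threshold include 10 with a count of 0 in all libraries. Nearest below it were LOC113645308, like ACVR2B, with a third-highest value of 0.853 FPKM, the BMP-2-like LOC113644575 at 0.596 and the TGF-beta-2-like LOC113636131 at 0.537. Nearest above it were tgfb2 at 1.51, bmp5 at 1.66 and LOC113645712 at 2.10. The wording of the rule misses some family genes with a LOC identifier, and 4 of these, found after descriptions had been seen, were tested. edgeR, DESeq2 and limma called 0 of the 4, and 0 had an unadjusted edgeR p under 0.05, against edgeR shares of 9.54% and 30.3% of all genes tested. The TGF-beta receptor type-2-like LOC113648975 was the most abundant receptor gene of all, at 92.4, 79.7 and 88.1 FPKM in normoxia and 68.1, 59.4 and 69.8 in hypoxia. The groups did not overlap, but with TMM scaling the log2 change was -0.24 ± 0.14 (edgeR adjusted p = 0.296). Inhibin beta B gene LOC113654265, an activin subunit, had 6.43 to 7.05 and 6.24 to 8.63 FPKM, the GDF10-like LOC113639795 0.820 to 2.04 and 0.724 to 1.53, and a second type-2 receptor-like gene, LOC113654227, 1.33 to 1.43 and 1.04 to 1.65.

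Other genes of the pathway, taken from a list of antagonists, activators, regulators and targets, gave 1 higher and 4 lower of 89 tested. That is 5.62% called, against 9.54% of all genes tested, and the median log2 change was -0.12. LOC113648242, described as LRRC32-like, resembles the protein GARP, which anchors latent TGF-beta on regulatory T cells and platelets of mammals. It had 38.4, 37.2 and 31.9 FPKM in normoxia and 10.3, 15.0 and 18.7 in hypoxia. All hypoxia libraries were well below normoxia, a 2.22-fold fall (log2 change -1.15 ± 0.19, edgeR adjusted p = 0.0232), beside the lower T and B cell marker sums given above, whose part was not tested. It was called in 3 of the 6 fits that left out 1 library. itgb8, the integrin subunit that activates latent TGF-beta, had 4.33, 2.86 and 3.99 FPKM in normoxia and 1.20, 1.95 and 1.29 in hypoxia and fell 2.25-fold (-1.17 ± 0.28, edgeR adjusted p = 0.0462).

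The gene that rose was LOC113653066, furin-1-like, of the protease family that cuts TGF-beta and BMP precursors. It had 6.90, 5.49 and 5.76 FPKM in normoxia and 7.72, 8.80 and 9.93 in hypoxia (log2 change 0.69 ± 0.14, edgeR adjusted p = 0.0344), and the call was lost with library totals (edgeR adjusted p = 0.0750), with limma and without an abundance trend. The second furin gene, LOC113660005, chosen after its values were seen, had 3.21 to 4.24 FPKM in normoxia and 2.11 to 2.78 in hypoxia (-0.40 ± 0.16, edgeR adjusted p = 0.148). Lower were also rbl1, a retinoblastoma-like partner of SMADs at cell cycle genes (-0.50 ± 0.12, edgeR adjusted p = 0.0463), and the CREB-binding protein-like coactivator gene LOC113639600 (-0.52 ± 0.13, edgeR adjusted p = 0.0496). With the length correction LOC113639600 gave -0.20 (edgeR adjusted p = 0.295), rbl1 -0.33 (0.128) and itgb8 -1.01 (0.0759), and all 3 calls also ended without an abundance trend and without an FPKM filter, that of LOC113639600 with RLE scaling too. itgb8 and rbl1 passed in none of the 6 fits that left out 1 library, nor did LOC113639600, and LOC113653066 passed only without normoxia 1.

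Further genes were named after their values were seen. LOC113662537, described as BAMBI, a decoy receptor without a kinase, had 51.8, 27.7 and 29.7 FPKM in normoxia and 11.9, 18.8 and 12.3 in hypoxia. The groups did not overlap and the log2 change was -1.19 ± 0.32 (edgeR adjusted p = 0.0588). DESeq2, limma, library totals and a filter at 5 FPKM called LOC113662537 lower. A second BAMBI gene, LOC113655519, had 22.8 to 27.6 and 20.2 to 25.3 FPKM (-0.05 ± 0.15, above 0 without an FPKM filter). Genes listed as antagonists or binding proteins gave values in both directions. Sclerostin gene sost had 13.4 to 17.9 and 7.75 to 9.64 FPKM (-0.62 ± 0.16, edgeR adjusted p = 0.0549). DESeq2, limma, library totals and a filter at 5 FPKM called sost lower. Gremlin gene grem1 had 5.69 to 9.87 and 7.87 to 17.2 FPKM (0.86 ± 0.31, edgeR adjusted p = 0.119) and was called higher by DESeq2. The thrombospondin-1 gene LOC113655652 had 14.8 to 22.8 and 8.09 to 11.7 FPKM (-0.65 ± 0.20, edgeR adjusted p = 0.0885) and was called lower by DESeq2. The follistatin gene fst had 0.910 to 1.07 and 1.17 to 1.61 FPKM. The lymphocyte transcription factor gene runx3 had 38.9 to 51.5 and 24.2 to 29.2 FPKM (-0.60 ± 0.15, edgeR adjusted p = 0.0515). It was called lower in the same alternatives as sost. Myostatin gene mstn, a muscle growth inhibitor, had 4.18 to 7.39 and 2.41 to 3.72 FPKM (-0.72 ± 0.30).

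Of 12 target genes used as readouts of the pathway in other vertebrates 0 were called, against 9.54% of all genes tested. Of the 12, 2 had an unadjusted edgeR p under 0.05, against 30.3% of all genes tested. DESeq2 called 1 of the 12 higher and limma 0. The median log2 change of the 12 was -0.36. The genes col1a1 and col1a2 were listed both as readouts and as fibroblast markers. Over all the pathway lists 9 genes were cell markers too. Those named here were chosen after their values were seen. The epithelial transition factor gene snai2 had 2.40, 1.65 and 2.54 FPKM in normoxia and 3.76, 3.58 and 3.53 in hypoxia (0.89 ± 0.24, edgeR adjusted p = 0.0625). col1a2, a fibrillar collagen gene, had 26.8, 198 and 245 FPKM in normoxia and 69.8, 86.7 and 34.0 in hypoxia, so that normoxia 1 stood far below the other normoxia libraries (log2 change -1.10 ± 0.74, edgeR adjusted p = 0.359). The table annotates 101 other tested genes to the TGF-beta signaling pathway, an annotation that 44 of the 52 members also carry. Of these 101 genes 6 were higher and 2 lower (7.92% called, against 9.54% of all genes tested). The 2 lower were rbl1 and LOC113639600, already given among the other pathway genes, so the 2 lists share genes. The 6 higher were rbx1, tomm6, cit, e2f8, LOC113648438 and LOC113655778.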

How the data were processed

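The table that the authors deposited holds counts and FPKM of every gene. The file headers name the columns as counts and FPKM. By their values, the counts are whole numbers per gene, and an FPKM of 0.0001 is listed for a count of 0. The FPKM were taken to be scaled to transcript length and library total. The tools cutadapt 1.9 and HISAT are named, per the submitters' processing notes. How reads were counted, the strandedness, the genome build and the FPKM software are not stated in the labels. Columns were matched to libraries by the code and number that the titles carry.

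The 3 hypoxia and 3 normoxia libraries were compared with edgeR 4.0.16 (glmQLFit, glmQLFTest, two-sided, TMM) in R 4.3.3 on all 15312 genes with at least 1 FPKM in at least 3 libraries, with Benjamini-Hochberg adjustment and a threshold of 0.05. SEs were derived from each estimate and its F value. The method was run on simulated counts that gave every gene the same dispersion. That need not hold in the gill, so the run does not bear on single calls. The common biological coefficient of variation was 0.329, and replicate libraries differed by more than counting error. The p-values set the difference between groups against the spread between pools of 3 fish, not between single fish. Alternatives used limma 3.58.1 and DESeq2 1.42.0, other scalings, filters and a loess length offset. Transcript length was estimated from counts and FPKM.

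Members and lists were chosen with earlier results of these data known. Genes named are the called members, the SMAD and ID genes, in each role the 3 of highest level and the largest changes, those next to the FPKM threshold and the called pathway genes; other members are named for completeness. A further pathway target is not reported here.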

Additional observations from a re-analysis of the deposited data

How the results depend on the processing

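The edgeR count of 3 members higher and 3 lower was recomputed under 16 other settings. The number higher was 1 with library totals in place of TMM, 0 without an abundance trend, 5 with DESeq2, 1 with limma on log2(FPKM + 1) and 0 on log2(FPKM + 0.1). The number lower was 0 without an FPKM filter. With 1 library left out, 0 to 1 members were higher, 0 to 1 lower, 0 to 3 other pathway genes called (5 with all libraries) and 132 to 912 of all genes called (1461 with all libraries), the lowest without normoxia 2. Other pathway genes called were 1 without an abundance trend, 15 with DESeq2, 2 without an FPKM filter and 3 with the length correction. Of all genes 779 were called without an abundance trend, 3332 with DESeq2 and 862 without an FPKM filter. Each fit with 1 library left out has the same, smaller number of degrees of freedom. The cause of these differences was not tested for any setting.

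Replicate numbers were shared by the groups, but nothing in the labels links libraries of the same number, so they were not taken as pairs. Deviations from the group mean correlated at -0.08, 0.05 and -0.10 between same-numbered libraries. Between libraries of unlike number the correlations ran from -0.12 to 0.18. With 3 libraries per group these values cannot decide on pairing. With a replicate block 0 members were higher, 0 lower, 0 other pathway genes and 242 of all genes were called, and LOC113650965 turned to 0.087.

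Of 73 named genes 55 kept their direction in every setting and 18 turned in at least 1; all 18 were uncalled in the edgeR comparison of all libraries. These log2 changes were as follows. With library totals LOC113638814 gave -0.051, LOC113639795 -0.029, LOC113642667 -0.0014, LOC113644556 -0.11, LOC113654227 -0.12, LOC113659438 -0.057 and smad9 -0.049. With limma on log2(FPKM + 1) LOC113638814 gave -0.032, LOC113644556 -0.11, LOC113654227 -0.069, LOC113659438 -0.040 and smad9 -0.035. With limma on log2(FPKM + 0.1) LOC113638814 gave -0.039, LOC113644556 -0.13, LOC113654227 -0.12, LOC113659438 -0.040 and smad9 -0.036. With the length correction, which moved the median of all genes to 0.049, LOC113650965 gave 0.16, LOC113658176 0.14, acvr2a 0.22, bmp2k 0.083, bmp7 0.11, bmpr2 0.22, ltbp1 0.18, smad2 0.032 and tgfbr1 0.12. Without an FPKM filter LOC113650965 gave 0.061, LOC113655519 0.0023, LOC113658176 0.052, acvr2a 0.020 and bmp7 0.0076. With a filter at 5 FPKM LOC113644556 gave -0.027. With DESeq2 LOC113650965 gave 0.018 and LOC113658176 0.014. With RLE scaling LOC113650965 gave 0.018 and LOC113658176 0.014. With 1 library left out the ranges were -0.062 to 0.23 for LOC113638814, -0.10 to 0.66 for LOC113639795, -0.065 to 0.24 for LOC113644556, -0.28 to 0.22 for LOC113650965, -0.18 to 0.18 for LOC113654227, -0.16 to 0.046 for LOC113655519 and -0.025 to 0.031 for LOC113658176. They were -0.076 to 0.035 for acvr2a, -0.24 to 0.21 for bmp7, -0.61 to 0.024 for bmper, -0.24 to 0.040 for bmpr2, -0.31 to 0.15 for ltbp1, -0.29 to 0.088 for smad2 and -0.029 to 0.32 for smad9.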
